A study of Rattus norvegicus with 6 samples.

Results

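The genes described here are 39 regulators of the cell division cycle in rat brain microvascular endothelial cells (rBMECs): cyclins, cyclin-dependent kinases (CDKs), CDK inhibitors, E2F factors, the retinoblastoma family, CDK phosphatases with the kinase Wee1, and the transcription factors and marker of dividing cells. They were taken by their gene names, and 36 of the 39 have a row under that name among the 33566 rows of the count table. Ccnb2, Cdkn2d and E2f1 have none. RNA was sequenced from primary rBMECs isolated from Sprague-Dawley rats 18 to 22 days of age (from the cortex by the labels, from the forebrain by the methods), the cells that wall off brain tissue from the blood. The cells were cultured and passaged before treatment, and neither group carried a genetic change. The Hcy group (3 libraries) was exposed to 100 μM homocysteine for 24 h by its label, whereas the methods of the study name a 50 μM solution. The Veh group (3 libraries) received the sterile water in which homocysteine was dissolved. Homocysteine is an amino acid formed when methionine gives up its methyl group. The study labels the 3 libraries of a group as biological replicates without saying whether each came from its own isolation. The comparison asks which transcripts differ in these cells after homocysteine.

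In the cell cycle, D-type cyclins with Cdk4 or Cdk6 begin the phosphorylation of the retinoblastoma protein, which then releases E2F factors. E2F factors switch on the genes of DNA replication as well as cyclin E and cyclin A, which act with Cdk2, and cyclin B with Cdk1 drives mitosis. The Cip/Kip inhibitors (p21, p27 and p57) and the INK4 inhibitors (p15, p16, p18 and p19) hold these kinases back. In the healthy adult brain, endothelial cells rarely divide, whereas in culture with growth supplements they do.

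Total counts per library ran from 14024997 to 16764584, and 3 counts, the level taken as the floor of detection, corresponded to 0.178 to 0.215 CPM (counts scaled to library size with TMM factors). Of the endothelial marker list, 10 of the 12 genes were detected at 244 CPM or more in both groups, among them Cdh5 and Vwf. Pecam1 had no row, and Cldn5 had 0 counts in every library. Cldn5 is listed inside the gene Cdc45 on the other strand, so its reads may have been left out or counted to Cdc45. This was not tested, and the 0 does not show that the cells lack Cldn5. The summed level of the endothelial list was 9451 to 9878 CPM in Hcy and 7821 to 9037 CPM in Veh, so the groups did not overlap. Of its members, Kdr, Flt1, Tie1 and Vwf were higher and Tek was lower in every Hcy library, and 0 passed edgeR's adjusted p. Of the pericyte and smooth muscle list, 5 of 8 genes were below 1 CPM in both groups, and its sum, 96.1 to 109 CPM in Hcy and 127 to 171 CPM in Veh, was mostly Acta2, which fell (log2 fold change, log2FC, Hcy over Veh, of -0.64, edgeR adjusted p = 0.0248). In the same list Cspg4 and Rgs5, at 5 to 16 counts per library in Hcy and 1 to 5 in Veh, were higher in every Hcy library, and Kcnj8, at 4 to 6 counts in Hcy and 7 to 13 in Veh, was lower in every Hcy library, none of the 3 passing the test. The fibroblast sum was 35.7 to 57.8 CPM in Hcy and 57.5 to 83.9 CPM in Veh. It was mostly Col1a1, which was lower in every Hcy library (log2FC -0.52, edgeR adjusted p = 0.264). Lists for astrocytes, microglia, neurons and epithelial cells summed to at most 2.63 CPM in any library. Of these, the neuron list was at 1.75 to 2.63 CPM in Hcy and 1.08 to 1.37 CPM in Veh, without overlap, and its only detected gene was Syt1 (edgeR adjusted p = 0.195). Among the defining genes of the 4 lists, Aqp4, Cx3cr1, Ptprc, P2ry12, Rbfox3, Snap25 and Map2 were at 0. The oligodendrocyte list summed to 10.6 to 12.2 CPM in Hcy and 11.2 to 11.3 CPM in Veh, mostly Mog, which overlapped between groups. The part of these differences in the results was not tested. Veh replicate 3 stood apart on the second principal component, at 27.1 against -14.1 and -16.9 for the other Veh libraries, and the counts of genes that passed are given with and without it.

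Across the 14603 genes with at least 10 counts in all, 341 (2.34%) reached an adjusted p of 0.05 or less with edgeR (quasi-likelihood, Benjamini-Hochberg), of which 193 (1.32%) were higher and 148 (1.01%) lower in Hcy. All 36 cell cycle genes met the count minimum. Only 1 passed (2.78%), namely Mybl2, which was higher in Hcy, and the share is near that background. Without Veh replicate 3, 6 of the 36 passed (Ccne1, Cdk1, Cdk2, Mki67 and Mybl2 higher, Cdkn1a lower), against 6.68% of all genes. With a log2FC beyond 1 in either direction as well, which 0.486% of all genes reached, 0 of the 36 were called by edgeR and 0 by DESeq2. With the unadjusted p and the same fold, 1 of the 36 was called, Cdkn2a, a share of 2.78% against 2.56% of all genes. By DESeq2's adjusted p alone, 4 of the 35 with a value passed (11.4%), against 5.09% of all genes with a value. In 15 of the 36 genes (41.7%) all Hcy libraries lay on the same side of all Veh libraries, without overlap, against 20.1% of all genes tested. Of these, 11 were higher in Hcy (30.6%, against a background of 10.8%) and 4 were lower (11.1%, against 9.27%). Without Veh replicate 3 the libraries did not overlap in 20 of the 36 genes (55.6%), against 38.1% of all genes, with 15 higher (41.7%, against 19.4%) and 5 lower (13.9%, against 18.7%). An unadjusted p of at most 0.05 was reached by 10 genes that were higher (27.8%, against 7.44%) and 2 that were lower (5.56%, against 5.95%). The median log2FC was 0.10 over the 36 genes and -0.02 over all genes tested, and without Veh replicate 3 the median of the 36 was 0.05. In these bulk libraries, the number of dividing cells, the stage of the cycle they are in and the RNA per cell cannot be told apart. In its own assays, the study reports less rBMEC proliferation with homocysteine, measured at a later time, and more apoptosis. Proliferation was not measured here.

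**Figure D1:**
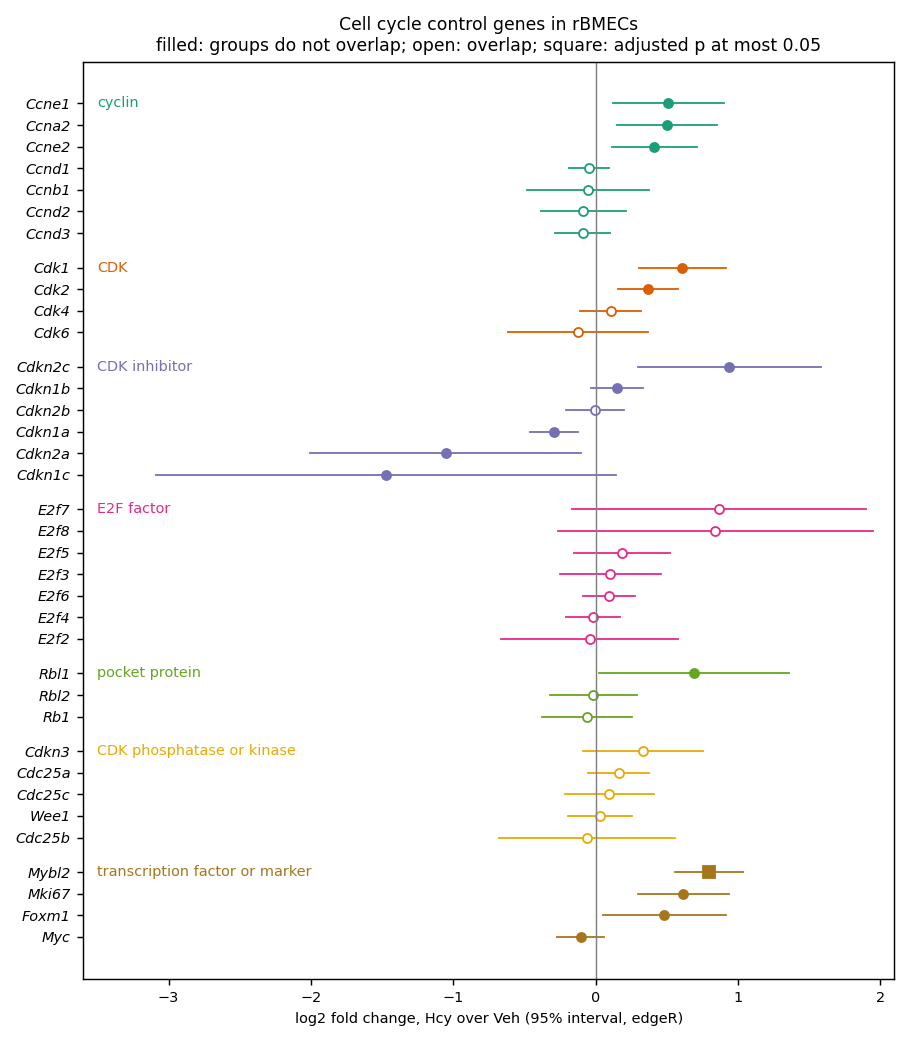
Log2FC (Hcy over Veh, horizontal axis) of the 36 cell cycle genes by role, with the 95% interval of the edgeR fit, in which filled symbols mark genes whose libraries do not overlap between groups and the square marks the gene that passed the adjusted p. Mybl2 (the square, at 0.80), Cdk1, Mki67 and the cyclin E and A genes lie to the right of 0, the D-type cyclins lie close to it, Cdkn1a lies to the left at -0.29, and the fitted value of Cdkn1c rests on counts at or under the floor in Hcy.

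Promoter windows are shown for 4 of the genes that the results turn on: Mybl2, which passed the test, Cdk1 and Mki67, which were higher in every Hcy library, and Cdkn1a, which was lower in every Hcy library. The windows run from 250 bases before to 50 bases after a listed start of the gene. They come from RefSeq (build GRCr8) and read 5′ to 3′ on the strand of the gene. For a gene with several listed windows, that at the lowest chromosome position was used, which need not be at its main start. Mybl2 lies at chr3:172124555-172124854 on the plus strand, Cdk1 at chr20:19265043-19265342 on the plus strand, Mki67 at chr1:199952544-199952843 on the minus strand and Cdkn1a at chr20:7150682-7150981 on the plus strand. Capitals mark the letters of an E2F motif or of a CHR (cell cycle genes homology region), searched on both strands. The E2F forms were TTCCCGC as well as TTCCCGG, in addition TTCGCGC as well as TTCGCGG, then TTGCCGC as well as TTGCCGG, and lastly TTGGCGC as well as TTGGCGG. The CHR forms were TTTGAA as well as TTCGAA.
Mybl2: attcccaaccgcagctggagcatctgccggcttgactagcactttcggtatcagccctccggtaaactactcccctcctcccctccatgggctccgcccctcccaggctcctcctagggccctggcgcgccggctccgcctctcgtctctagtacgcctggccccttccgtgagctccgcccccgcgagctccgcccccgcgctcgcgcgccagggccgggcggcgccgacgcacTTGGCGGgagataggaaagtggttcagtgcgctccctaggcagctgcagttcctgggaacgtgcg
Cdk1: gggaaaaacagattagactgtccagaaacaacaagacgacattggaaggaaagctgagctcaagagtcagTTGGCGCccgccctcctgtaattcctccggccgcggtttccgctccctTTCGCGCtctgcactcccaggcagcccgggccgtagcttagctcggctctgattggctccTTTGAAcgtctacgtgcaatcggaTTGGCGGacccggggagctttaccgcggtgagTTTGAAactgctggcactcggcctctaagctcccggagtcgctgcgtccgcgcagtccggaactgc
Mki67: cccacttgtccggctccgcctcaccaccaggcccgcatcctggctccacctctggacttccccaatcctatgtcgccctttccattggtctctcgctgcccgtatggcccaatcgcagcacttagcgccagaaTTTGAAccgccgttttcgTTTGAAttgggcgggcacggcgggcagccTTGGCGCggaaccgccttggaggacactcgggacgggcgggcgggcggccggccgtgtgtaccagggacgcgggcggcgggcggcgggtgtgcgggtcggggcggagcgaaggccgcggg
Cdkn1a: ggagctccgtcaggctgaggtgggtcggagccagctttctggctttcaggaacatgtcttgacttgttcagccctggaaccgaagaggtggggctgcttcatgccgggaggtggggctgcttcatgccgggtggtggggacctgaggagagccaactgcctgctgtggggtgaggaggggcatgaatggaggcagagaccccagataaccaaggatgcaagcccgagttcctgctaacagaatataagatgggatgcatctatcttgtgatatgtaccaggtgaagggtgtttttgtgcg
The Mybl2 window held 1 E2F match, at bases 236 to 242 of its 300. The Cdk1 window held 3 E2F and 2 CHR matches, and that of Mki67 held 1 E2F and 2 CHR matches, with no base shared between the 2 motifs. No match to these letters was found in the Cdkn1a window used, which does not speak to other starts of Cdkn1a. A RefSeq window was at hand for 25 of the 39 genes, and 13 of these (52%) held an E2F match, against 18.1% of 27457 windows of the same length. A CHR match was found in 9 of the 25 (36%) and in 19.5% of all windows. For all windows the first listed for each gene was taken, so these shares can rest on differently chosen starts. By the expression data, an E2F match was in 7 of the 8 windows of genes that were higher in every Hcy library, in 5 of the 13 windows of genes whose libraries overlapped, and in 0 of the 2 windows of genes that were lower in every Hcy library, Cdkn1a and Cdkn2a. A CHR match was in 2 of these 8, 6 of these 13 and 0 of these 2 windows. These matches describe the letters of the windows, and no binding was measured. The letters were chosen after the sequences and data were seen. No share among all genes that were higher in Hcy is given, so no conclusion is drawn from this split.

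Mybl2 encodes B-Myb, a transcription factor that is itself an E2F target and acts with the MuvB complex and FoxM1 on the genes of mitosis. The count table, whose positions name no build, lists it on chromosome 3 from 159421671 to 159450086 on the plus strand. Its level was 12.7, 11.6 and 12.8 CPM in Veh replicates 1, 2 and 3 and 21.6, 22.4 and 20.5 CPM in Hcy replicates 1, 2 and 3. The Hcy libraries lay close together and well above all Veh libraries. Mybl2 rose 1.74-fold, with means of 12.4 ± 0.670 CPM (SD, n = 3) in Veh and 21.5 ± 0.955 CPM (SD, n = 3) in Hcy and a log2FC of 0.80 (standard error, SE, 0.10, edgeR adjusted p = 0.00781). Without Hcy replicate 1 the adjusted p of Mybl2 was 0.0530, and over all alternatives its log2FC stayed between 0.75 and 0.83 and its adjusted p between 4.28e-06 and 0.0530.

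Mki67, which encodes the proliferation marker Ki-67, had 19.5, 18.0 and 24.0 CPM in the Veh replicates and 28.2, 36.5 and 29.5 CPM in the Hcy replicates. All Hcy libraries were above all Veh libraries, and Veh replicate 3 was the highest of its group. The ratio of the means was 1.53 and the log2FC 0.62 (95% interval 0.30 to 0.93), with an edgeR adjusted p of 0.0630 that missed the threshold. The adjusted p of Mki67 was 0.00310 with DESeq2, 0.0206 with no count minimum and 0.00669 without Veh replicate 3, and over all alternatives it reached 0.233. Foxm1, the partner of B-Myb in the activation of mitotic genes, was at 2.84 ± 0.285 CPM (SD, n = 3) in Veh and 3.97 ± 0.0828 CPM (SD, n = 3) in Hcy, with no overlap and a log2FC of 0.48 (edgeR adjusted p = 0.304).

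Among the cyclins, the E and A genes were higher in every Hcy library, whereas the D and B genes overlapped between groups. Ccne1 and Ccne2 encode cyclin E, the partner of Cdk2 at the entry into S phase, and Ccna2 encodes cyclin A2, which acts through S phase and G2. Ccne1 was at 11.3, 9.68 and 15.5 CPM in Veh and 16.4 to 19.0 CPM in Hcy, Ccne2 at 13.8 to 16.1 CPM in Veh and 16.9 to 22.3 CPM in Hcy, and Ccna2 at 6.56 ± 0.775 CPM (SD, n = 3) in Veh and 9.27 ± 0.939 CPM (SD, n = 3) in Hcy. For each of these 3 genes the lowest Hcy library was above the highest Veh library. Their log2FCs were 0.51, 0.41 and 0.50, with adjusted p of 0.216, 0.188 and 0.174 from edgeR's test. Without Veh replicate 3, whose Ccne1 level was the nearest to Hcy, the log2FC of Ccne1 was 0.72 (edgeR adjusted p = 0.0100, and up to 0.517 over the alternatives). In the table, Ccna2 overlaps Exosc9 and Ccne2 overlaps Ints8, each on the other strand, and whether counting used the strand is not given in the sources used here.

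Ccnd1, cyclin D1, which links growth signals to Cdk4 and Cdk6, is listed on the minus strand of chromosome 1, from 218090750 to 218100325. It had 2096, 2267 and 2259 CPM in the Veh replicates and 2152, 2181 and 2087 CPM in the Hcy replicates. The groups overlapped, and the log2FC was -0.04 with a 95% interval of -0.18 to 0.09. For Ccnd2 and Ccnd3, the other D-type cyclins, it was -0.08 and -0.09, again with overlapping libraries. With a library left out, it ran from -0.21 to -0.0034 for Ccnd2 and from -0.15 to -0.028 for Ccnd3. Ccnb1, the mitotic cyclin B1, was at 5.46 to 7.61 CPM in Veh and 5.64 to 7.52 CPM in Hcy, and its log2FC of -0.05 had a 95% interval of -0.48 to 0.37. Ccnb2 has no row of that name, and 3 rows that the table matches to a cyclin B2 protein held 37 to 71 counts per library together, with 0 of the 3 passing the adjusted p. Of the 7 cyclins tested, 0 passed edgeR's adjusted p and 0 that of DESeq2, and 3 reached an unadjusted p of 0.05, which 13.4% of all genes did.

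Of the kinases, Cdk1 is the mitotic CDK and Cdk2 that of S phase, while Cdk4 and Cdk6 act in G1. Cdk1 is listed on chromosome 20 from 20576377 to 20591549 on the plus strand. It had 24.6, 21.5 and 30.5 CPM in the Veh replicates and 43.1, 37.4 and 36.3 CPM in the Hcy replicates. No Veh library reached the lowest Hcy library. The mean was 1.53 times as high in Hcy, with a log2FC of 0.61 (SE 0.13, 95% interval 0.31 to 0.91) and an edgeR adjusted p of 0.0547. The adjusted p of Cdk1 was 0.00181 with DESeq2, 0.0425 with library totals alone, 0.0150 with no count minimum and 0.00242 without Veh replicate 3, and over all alternatives it reached 0.223. Cdk2 was at 17.7 to 19.4 CPM in Veh and 23.5 to 24.9 CPM in Hcy, a log2FC of 0.37 (edgeR adjusted p = 0.0977, 0.0438 without Veh replicate 3 and up to 0.370 over the alternatives). Cdk4, at 107 to 126 CPM in Veh and 111 to 131 CPM in Hcy, and Cdk6, at 9.14 to 15.2 CPM in Veh and 10.3 to 14.8 CPM in Hcy, overlapped between groups. Reads of Cdk4 and of Tspan31, which overlaps it on the other strand, may have been split or left out.

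**Figure D2:**
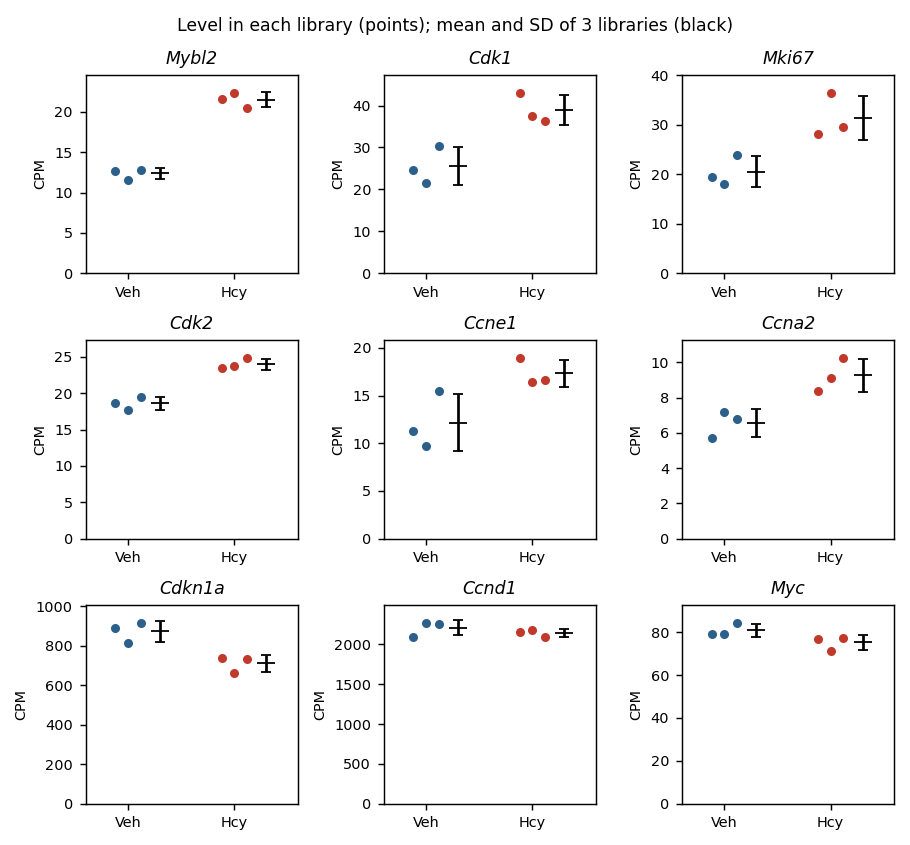
Level in CPM (vertical axis, from 0) of 9 cell cycle genes in each Veh (blue) and Hcy (red) library, with the mean and SD of 3 libraries in black. Mybl2, Cdk1, Mki67, Cdk2, Ccne1 and Ccna2 are higher in every Hcy library, Cdkn1a and Myc are lower in every Hcy library, and Ccnd1 overlaps between groups.

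The CDK inhibitors differed in direction, and none passed edgeR's adjusted p. Cdkn1a encodes p21, a target of p53 that binds cyclin E and cyclin A kinases and stops the cycle. It is listed on chromosome 20 from 6351458 to 6358864 on the plus strand. Cdkn1a was at 891, 813 and 915 CPM in the Veh replicates and 740, 662 and 734 CPM in the Hcy replicates, and every Hcy library was below every Veh library. The mean was 873 ± 53.5 CPM (SD, n = 3) in Veh and 712 ± 43.5 CPM (SD, n = 3) in Hcy. This log2FC of -0.29 (95% interval -0.46 to -0.12) had an adjusted p of 0.0966 with edgeR, 0.0205 with DESeq2, 0.0373 without Veh replicate 3 and up to 0.342 over the alternatives. Cdkn1b, p27, was at 33.7 ± 0.640 CPM (SD, n = 3) in Veh and 37.5 ± 2.18 CPM (SD, n = 3) in Hcy with no overlap, a log2FC of 0.15 (edgeR adjusted p = 0.485).

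Among the INK4 inhibitors of Cdk4 and Cdk6, Cdkn2c, which encodes p18, had 21, 27 and 20 counts in the Veh replicates and 51, 34 and 41 counts in the Hcy replicates. Its log2FC was 0.94 (95% interval 0.30 to 1.59, edgeR adjusted p = 0.162). Cdkn2a, whose locus encodes p16 and, from another reading frame, p19Arf, had 15, 22 and 18 counts in Veh and 6, 6 and 14 counts in Hcy. The log2FC of Cdkn2a was -1.05 (95% interval -2.01 to -0.10, edgeR adjusted p = 0.311), and gene counts do not part the p16 and p19Arf transcripts. Neither of these low-count genes passed the test, although the libraries did not overlap in either. Cdkn2b, p15, was close to level at 33.0 ± 0.585 CPM (SD, n = 3) in Veh and 32.9 ± 2.74 CPM (SD, n = 3) in Hcy. Cdkn1c, p57, had 5 counts in each Veh library and 1, 3 and 1 in the Hcy libraries, which are at or under the floor. Of the 6 inhibitors tested, 0 passed edgeR's adjusted p, 1 that of DESeq2 and 3 reached an unadjusted p of 0.05, against 5.09% of all genes by DESeq2 and 13.4% by unadjusted p.

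The E2F genes with a row of their own overlapped between groups in all 7 cases. E2f4 and E2f6, mostly repressors of transcription, were the most abundant of the family per length, at 17.6 and 17.9 RPKM (CPM divided by the listed gene length in kilobases) in Veh, and their log2FCs were -0.02 and 0.09. E2f2 and E2f3, activators of the same kind as E2f1, had log2FCs of -0.04 and 0.10, and that of E2f5, another repressor, was 0.18. With a library left out, the log2FC of E2f5 was 0.11 to 0.28. E2f7 and E2f8, which repress E2F targets in late S phase, had log2FCs of 0.87 and 0.84 at no more than 36 counts in any library, with 95% intervals of -0.16 to 1.90 and -0.27 to 1.95. The log2FC of E2f7 was 0.51 without Veh replicate 3 and 1.51 without Veh replicate 1. That of E2f8 was 1.419 without Veh replicate 3, 0.55 without Veh replicate 2 and 0.50 without Hcy replicate 1. Of these 7 genes, 0 passed the adjusted p of edgeR, 0 that of DESeq2 and 0 reached an unadjusted p of 0.05.

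E2f1, the activator most closely tied to entry into S phase, has no row of that name. A row named Necab3, on the minus strand of chromosome 3 from 150047826 to 150073721, carries the Swiss-Prot match of rat E2F1 and the family entry E2F in the table, and RefSeq places Necab3 and E2f1 next to each other. This row was looked up after the values of the other genes were seen, and it is counted among neither the 36 nor the 39. Reads of Necab3 and E2f1 cannot be told apart in it. It had 315, 310 and 277 counts in the Veh replicates and 480, 508 and 487 counts in the Hcy replicates. All Hcy libraries were above all Veh libraries. The row rose 1.69-fold, from a mean of 19.2 ± 0.527 to 32.5 ± 3.02 CPM (SD, n = 3 in each group), with a log2FC of 0.76 (SE 0.10, edgeR adjusted p = 0.00781). Without Hcy replicate 1 its adjusted p was 0.0531 and without Hcy replicate 2 it was 0.05002, just above the threshold.

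Of the retinoblastoma family, Rb1 encodes the retinoblastoma protein and had 29.2, 32.2 and 23.1 CPM in the Veh replicates and 26.4, 30.6 and 24.2 CPM in the Hcy replicates. The groups overlapped, and Rb1 had a log2FC of -0.06 with a 95% interval of -0.38 to 0.26. Lpar6, on the other strand, overlaps Rb1 in the table and had more counts than Rb1. Rbl2, which encodes p130, the pocket protein of resting cells, had a log2FC of -0.02. Rbl1 encodes p107, whose gene is an E2F target, and was at 3.32, 4.01 and 1.73 CPM in Veh and 5.17, 5.44 and 4.12 CPM in Hcy. For Rbl1 the libraries did not overlap, and the log2FC was 0.69 (95% interval 0.02 to 1.36, edgeR adjusted p = 0.351). Veh replicate 3 was the lowest, and without it the log2FC of Rbl1 was 0.42.

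The phosphatases Cdc25a, Cdc25b and Cdc25c, which remove the inhibitory phosphates of CDKs, Wee1, which adds one to Cdk1, and Cdkn3, a phosphatase of Cdk2 and Cdk1, overlapped between groups. Their log2FCs ran from -0.06 for Cdc25b to 0.33 for Cdkn3, and the smallest adjusted p was 0.509 from edgeR's test. None of the 5 reached an unadjusted p of 0.05 in edgeR or the adjusted p of DESeq2. Wee1 was the most abundant of them per length, at 15.4 ± 0.370 RPKM (SD, n = 3) in Veh and 15.7 ± 2.13 RPKM (SD, n = 3) in Hcy. Myc, the growth-induced transcription factor, had 78.9, 79.4 and 84.3 CPM in the Veh replicates and 76.8, 71.4 and 77.5 CPM in the Hcy replicates. Every Hcy library was below every Veh library by a small margin, and the log2FC of Myc was -0.10 with a 95% interval of -0.27 to 0.06 (edgeR adjusted p = 0.62).

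Per length, the levels of the 36 genes in Veh spanned from 0.157 RPKM for Cdkn1c to 570 RPKM for Ccnd1. Cdkn1a came next at 448 ± 27.4 RPKM (SD, n = 3), and the libraries of Ccnd1 and Cdkn1a did not overlap in either group. Ccnd3 at 126 ± 9.74 RPKM (SD, n = 3) and Cdk4 at 124 ± 11.7 RPKM (SD, n = 3) followed and did not differ beyond their spread. Below them came Ccnd2 at 42.8 ± 6.21 RPKM (SD, n = 3), Myc at 30.1 RPKM and Cdkn1b at 19.2 ± 0.365 RPKM (SD, n = 3). The most abundant genes were thus those of G1 control, cyclin D1, cyclin D3, Cdk4 and p21. Cdk1 stood at 18.1 ± 3.23 RPKM (SD, n = 3) in Veh, a spread that took in the means of Cdkn1b, E2f6 and E2f4. In Hcy, Cdk1 stood at 27.6 ± 2.58 RPKM (SD, n = 3). Mybl2 stood at 3.33 ± 0.181 RPKM in Veh and 5.79 ± 0.257 RPKM in Hcy, and Mki67 at 2.08 ± 0.315 and 3.18 ± 0.452 RPKM (SD, n = 3 in each group).

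**Figure D3:**
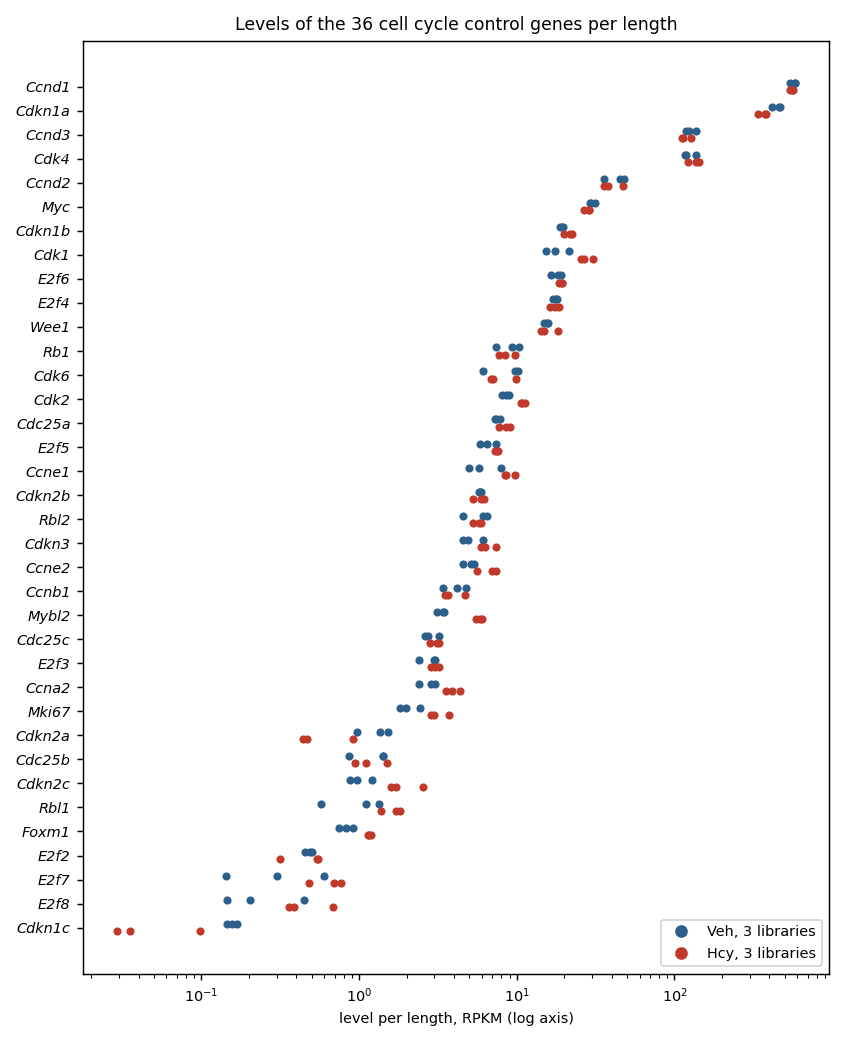
Level per length (RPKM, logarithmic horizontal axis) of the 36 cell cycle genes in each of 3 Veh (blue) and 3 Hcy (red) libraries, ordered by the Veh mean. Ccnd1 at 570 RPKM and Cdkn1a at 448 RPKM lead the order, and Cdkn1c at 0.157 RPKM closes it.

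The neighbouring parts of the pathway were counted from 7 hand-written lists with 103 genes tested. The lists were written with earlier results of these data known, so shares above the background describe them and are no test. By edgeR's adjusted p, 9 of the genes rose and 3 fell in Hcy, 11.7% against 2.34% of all genes. Replication licensing held most of them. The 13 genes of that list load, mark or, for Gmnn, restrain the replication machinery on DNA. Of them, 8 rose, 0 fell and 12 were higher in every Hcy library, against backgrounds of 1.32%, 1.01% and 10.8%. The list median of the log2FC was 0.67. Mcm2, Mcm4 and Mcm5 encode subunits of the helicase that opens the DNA. Mcm4 rose from 54.0 ± 0.718 to 87.5 ± 4.96 CPM (SD, n = 3 in each group) with a log2FC of 0.70 (edgeR adjusted p = 0.00242), and those of Mcm2 and Mcm5 were 0.68 (adjusted p = 0.0037) and 0.80 (adjusted p = 0.00487). These 3 genes passed in all alternatives. Cdc45, a partner of that helicase, had a log2FC of 0.80 (edgeR adjusted p = 0.00817, up to 0.0563 with a library left out), with Cldn5, at 0 counts, listed inside it on the other strand. The others that rose were Mcm3, Mcm6 and Mcm7, further subunits of the helicase, and Pcna, the sliding clamp of the DNA polymerases. Of these, Mcm6, Mcm7 and Pcna no longer passed in 5 of the 6 leave-one-out fits, and Mcm3 did not pass without Hcy replicate 1 (edgeR adjusted p = 0.0640) or without Hcy replicate 2 (0.0507).

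Of the 13 genes of the p53 pathway list, 2 fell and 0 rose, against 1.01% and 1.32% of all genes. At an unadjusted p of 0.05, 5 were lower and 1 was higher, against 5.95% and 7.44% of all genes. Mdm2, the ubiquitin ligase that p53 induces and that degrades p53, was at 486, 570 and 493 CPM in the Veh replicates and 297, 325 and 316 CPM in the Hcy replicates. No Hcy library came near the lowest Veh library. Its log2FC was -0.72 (SE 0.08, edgeR adjusted p = 0.00353), and Mdm2 passed in all alternatives. Gadd45b, a stress-induced gene, had a log2FC of -0.59 (edgeR adjusted p = 0.0114, up to 0.0753 with a library left out). Among 23 other cyclins and CDKs, 1 fell (background 1.01%), Ccng1, which encodes cyclin G1, itself a p53 target. In that list 5 genes were lower and 1 was higher at edgeR's unadjusted p of 0.05, against 5.95% and 7.44% of all genes. Ccng1 fell from 506 ± 26.3 to 390 ± 9.64 CPM (SD, n = 3 in each group) with a log2FC of -0.38 (edgeR adjusted p = 0.023). Its adjusted p was above 0.05 in 5 of the 6 leave-one-out fits, at up to 0.138.

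In the Myc network list of 10 genes, 1 rose (background 1.32%), Mycn, a relative of Myc, with 37, 40 and 24 counts in the Veh replicates and 81, 101 and 131 counts in the Hcy replicates. The Hcy libraries were all above the Veh libraries, and its log2FC was 1.67 (SE 0.22, edgeR adjusted p = 0.00781, and 0.0516 without Hcy replicate 3). Per length Mycn stayed far below Myc, at 2.61 RPKM in Hcy against 28.0 RPKM. Of 26 mitotic kinase and anaphase-promoting complex genes, 0 passed edgeR's adjusted p and 7 reached an unadjusted p of 0.05, 6 of them higher in Hcy. By DESeq2's adjusted p 1 passed, Plk2, which was higher in Hcy (log2FC 0.27 from edgeR). The shares of all genes were 5.09% by DESeq2, 13.4% by unadjusted p and 7.44% by unadjusted p in the higher direction. Of 8 DREAM complex genes and E2F partners 0 passed in edgeR and 0 in DESeq2, with 3 at an unadjusted p of 0.05, all higher. Of 10 genes of the G1 ubiquitin ligase 0 passed in either tool, with 1 at an unadjusted p of 0.05. Without Veh replicate 3, 23 genes of the 7 lists passed edgeR's adjusted p, against 6.68% of all genes. Cdc6, Cdt1 and Gmnn of the licensing list then joined the 8 others, all higher. Of the mitotic list Plk2 and Ube2c, of the DREAM list Rbbp7, of the G1 ligase list Cks1b and of the p53 list Gadd45a passed as higher, and Cdk12, Cdk13 and Cdk14 passed as lower.

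**Figure D4:**
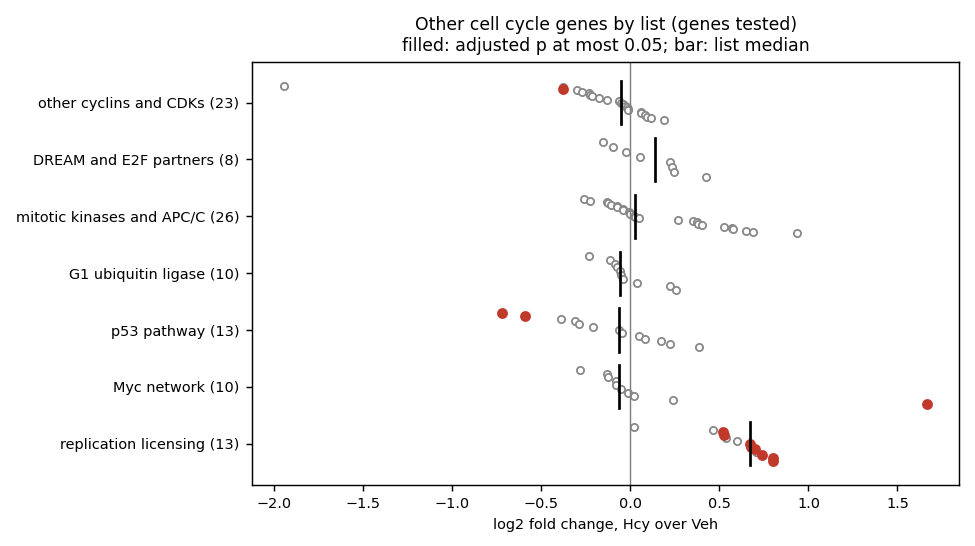
Log2FC (Hcy over Veh, horizontal axis) of the genes tested in 7 other cell cycle lists, with the number of genes in brackets, filled red points for genes that passed the adjusted p and a black bar at the list median. The replication licensing genes lie to the right of 0 around a median of 0.67, the points of Mdm2 at -0.72 and Gadd45b at -0.59 lie to the left, and Mycn is at 1.67.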

How the data were processed

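RNA-seq counts of 6 rBMEC libraries, 3 Hcy and 3 Veh grouped by their labels, were analysed. The table deposited by the authors holds raw read counts for each gene beside its length and position. Their processing notes name fastp, HISAT2 2.2.1 and featureCounts 2.0.6, and the study's methods name mRatBN7.2. The deposited positions name no build and reach 282724300 on chromosome 1, past the end of that chromosome in mRatBN7.2. They are therefore given as listed. The authors' own table of a DESeq2 comparison, with normalized values, fold changes and p-values, was not used.

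Counts were normalized with TMM and compared with edgeR 4.0.16 (quasi-likelihood test, condition as the only term, R 4.3.3) over the 14603 genes whose counts reached 10 in total. P-values were adjusted by Benjamini-Hochberg over all of them. RPKM used the listed gene length. Alternatives were DESeq2 1.42.0, its size factors, library totals, other count filters, a prior count of 2, unadjusted p, the replicate number as a block, and each library left out. Tests were checked on simulated counts. The genes and lists were chosen with earlier results of these data known. The genes described in full were those with an adjusted p of at most 0.05, the best known of each role and, of other lists, up to 4 passing genes by p. Other genes given by library or with a test, such as Ccne1, Cdkn2c and Rbl1, were chosen after their values were seen. The motif letters and the non-overlap count without Veh replicate 3 were chosen after the sequences and data were seen. Intervals and floors cover counting error or the fitted spread only.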

Additional observations from a re-analysis of the deposited data

How the results depend on the processing

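The count of genes that passed both thresholds, 71, was 109 with no count minimum, 374 with the unadjusted p, and 39 to 119 over the fits lacking 1 library. The 341 genes that passed the adjusted p became 612 with DESeq2 and 80 to 975 with a library left out, the most without Veh replicate 3. Of the 36 cell cycle genes, 1 passed in edgeR, 4 with DESeq2 (Cdk1, Mki67, Mybl2 and Cdkn1a), 2 with library totals alone, 3 with no count minimum, 12 with the unadjusted p and 0 to 6 with a library left out, 0 without Hcy replicate 1 and 6 without Veh replicate 3. For the other cell cycle lists the 12 passing genes became 5 to 23, the fewest without Hcy replicate 3 and the most without Veh replicate 3. The median log2 fold change of the 36 genes was 0.053 to 0.14 with a library left out, lowest without Veh replicate 3. The cause of these shifts was not tested.

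Sign changes were limited to 10 genes that did not pass in any fit and to fits that left out a library. The log2 fold changes there ran from -0.20 to 0.060 for Ccnb1, -0.32 to 0.0030 for Cdk6, -0.054 to 0.060 for Cdkn2b, -0.17 to 0.18 for E2f2, -0.0015 to 0.16 for E2f3, -0.067 to 0.033 for E2f4, -0.18 to 0.042 for Rb1, -0.15 to 0.077 for Rbl2, -0.27 to 0.087 for Cdc25b and -0.085 to 0.10 for Wee1. Of 636 values for 49 genes under 13 alternatives, 576 kept their direction and side of the threshold, 31 lost significance and 11 gained it. With filterByExpr, Cdkn1c had too few counts to be tested.

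Whether replicate numbers pair the groups was checked by correlating, over 12296 genes, how an Hcy library and the Veh library of its number departed from their means. The correlations were 0.0087, 0.208 and 0.0581, and not every library correlated best with its own number, so the numbers were not taken as pairs. In the fit with a replicate block, 82 genes passed both thresholds and 298 the adjusted p. Of the 36 genes Mybl2 alone passed under the block, while Mcm6 (adjusted p = 0.0537 from edgeR) and Pcna (adjusted p = 0.0571 from edgeR) no longer did. At these depths, genes with few reads such as Cdkn1c, E2f7 and E2f8 have wide intervals.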
